A study of Mus musculus with 6 samples.

Results

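The comparison concerns the wild-type lesion over time: nuclei from photothrombotic (PT) brain lesions of control (Ctrl) mice at 21 days post injury (dpi) against 7 dpi. Members were all barcodes of the 2 Ctrl libraries with at least 1000 unique molecular identifiers (UMIs, counts of captured RNA molecules) and under 5% mitochondrial UMIs, which left 19975 of the 60729 nuclei that pass the same filter in all 6 libraries of the series (7906 at 7 dpi and 12069 at 21 dpi). The other 4 libraries, from mice with fibroblast deletion of Tgfbr2 or given an αvβ8-blocking antibody, were used only for these totals. Both Ctrl libraries are labelled as wild-type with PT injury, with no treatment named. In this injury light and the dye Rose Bengal close the vessels of a patch of somatosensory cortex. Each library combined the lesions of 1 male and 1 female mouse. According to the study's methods the lesions were dissected from the removed skullcaps, and nuclei were sorted on DAPI and captured with Chromium 3′ v3.1 reagents. With 1 library per time point no test across mice exists, and every interval below is a 95% interval for counting error only.

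After focal ischaemia, dead cortex is cleared by microglia and blood-derived macrophages. It is walled off by reactive astrocytes and filled by fibroblasts that migrate from the meninges and vessel walls and deposit extracellular matrix. Some of these fibroblasts pass through a myofibroblast state, a contractile, matrix-secreting form driven in part by TGFβ. Surviving vessels sprout and later rebuild the blood-brain barrier, and oligodendrocyte precursor cells (OPCs) divide and differentiate at the lesion border.

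The 7 dpi library held 9004 barcodes and 64798965 UMIs, and the 21 dpi library held 14246 barcodes and 83026693 UMIs. Nuclei that passed the filter had a median of 6268 UMIs at 7 dpi and 5221 at 21 dpi. Clusters were named from marker genes, and each name below means "like" that class. These rebuilt names may differ from those of the study. By the UMIs of Xist and Y-linked genes, 2894 nuclei were called female and 2971 male at 7 dpi, and 6344 and 3247 at 21 dpi. Each sex stands for 1 mouse per time point as far as the calls are right. 1463 and 1595 nuclei held UMIs of both kinds, and 23 barcode sequences occurred in both libraries.

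Myeloid-like nuclei, the macrophages and microglia, were the largest named class at both times, and their share fell about 2-fold. At 21 dpi that rank depends on leaving clusters 1, 7 and 12, described below, out of the fibroblast-like class. Astrocyte-like nuclei went from one of the rarest classes to 10.6% of the library. Myeloid-like nuclei made up 49.8% of nuclei at 7 dpi (48.7 to 50.9, 3934 nuclei) and 24.2% at 21 dpi (23.4 to 25, 2922 nuclei), a log2 ratio of -1.04 (-1.11 to -0.97). The fall was alike in female nuclei (50.4% to 25.1%) and male nuclei (50.9% to 25.7%). Astrocyte-like nuclei made up 1.14% at 7 dpi (0.916 to 1.40, 90 nuclei) and 10.6% at 21 dpi (10.0 to 11.2, 1278 nuclei), a log2 ratio of 3.22 (2.91 to 3.54). OPC-like nuclei moved the other way, from 7.77% (7.19 to 8.38, 614 nuclei) to 1.66% (1.44 to 1.90, 200 nuclei), a log2 ratio of -2.23 (-2.47 to -2). Shares are fractions of a dissected piece, so a rise in one class lowers the others, and fewer cells of a class cannot be told apart from more of the rest in the piece.

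Among the smaller classes, endothelial-like nuclei went from 3.10% to 5.19% (log2 ratio 0.74, 0.53 to 0.96) and T/NK-like nuclei from 1.83% to 2.78% (0.60, 0.31 to 0.89). Oligodendrocyte-like nuclei went from 0.620% to 1.24% (1.00, 0.53 to 1.5) and dendritic-like nuclei fell from 2.49% to 1.47% (-0.76, -1.07 to -0.46). The mural-like share, of pericytes and smooth muscle, was 1.10% and 1.25%, and its interval for the log2 ratio included 0 (0.19, -0.20 to 0.58). Neuron-like nuclei made up 1.88% and 2.30% (0.28, -0.01 to 0.58). In that class the mice differed: the share went from 0.933% to 2.59% in female nuclei and from 2.46% to 1.14% in male nuclei.

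Fibroblast-like nuclei, from clusters 4, 8 and 13, made up 21.4% at 7 dpi (20.5 to 22.3, 1690 nuclei) and 11.6% at 21 dpi (11 to 12.2, 1401 nuclei), a log2 ratio of -0.88 (-0.98 to -0.78). That direction depends on which clusters are counted. Clusters 1, 7 and 12 also carried collagen transcripts, cluster 7 at a lower level, but stayed unnamed by the naming rule. In cluster 1 the raised markers were the astrocyte-list genes Gja1, Gjb6 and Slc4a4, without Gfap, Aqp4, Slc1a2 or Slc1a3, and clusters 7 and 12 were led in part by markers of other classes, the pericyte gene Atp13a5 in cluster 7 and genes of bone matrix in cluster 12. Cluster 1, led by Npr3, Vsx1, Slc47a2 and Slc47a1, grew from 1.90% to 14.6% of nuclei (log2 ratio 2.95, 2.70 to 3.20). Cluster 7, led by Trpm3, Ptgds and the transporter gene Slc6a20a, grew from 0.708% to 8.53% (3.59, 3.20 to 4.01), and cluster 12, led by the bone-matrix genes Bglap and Ibsp, from 3% to 4.75% (0.66, 0.44 to 0.89). The mice differed in cluster 12, whose share went from 4.98% to 3.63% in female nuclei and from 1.48% to 6.99% in male nuclei. Col1a2, which encodes a chain of collagen I, stood at 2730 and 2460 CPM in cluster 1 and at 4780 and 7240 CPM in cluster 12 at 7 and 21 dpi, where CPM (counts per 1e6) are UMIs scaled to the non-mitochondrial UMIs of the class. It stood at 665 and 1320 CPM in cluster 7, at 2800 and 4100 CPM in fibroblast-like nuclei, at 2860 and 3080 CPM in the unnamed cluster 3, which was not added, and at 757 and 739 CPM in astrocyte-like nuclei. The 12 fibroblast markers summed to 11400 and 9850 CPM in cluster 1, 10200 and 8800 CPM in cluster 7 and 15600 and 18300 CPM in cluster 12. Their sums were 12300 and 13600 CPM in fibroblast-like nuclei, 9880 and 9450 CPM in cluster 3 and 3040 and 2290 CPM in astrocyte-like nuclei. Bnc2 alone gave 5370 and 4510 CPM in cluster 1 and 5430 and 3820 CPM in cluster 7. With clusters 1, 7 and 12 added, the fibroblast share rose from 27.0% to 39.5% (log2 ratio 0.55, 0.48 to 0.62). Cluster 3 (3.33% and 9.82%), led by the immunoglobulin genes Igha, Igkc and Jchain with Lyz2, a macrophage gene, and Lum among its first 10, had few UMIs per nucleus (median 2028 at 21 dpi), 31.2% of its nuclei were called doublets, myeloid markers in it summed to 2400 and 1940 CPM, and it also stayed unnamed. With 1 library per time, a cluster held mostly by one library may be that library rather than a cell state.

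**Figure D1:**
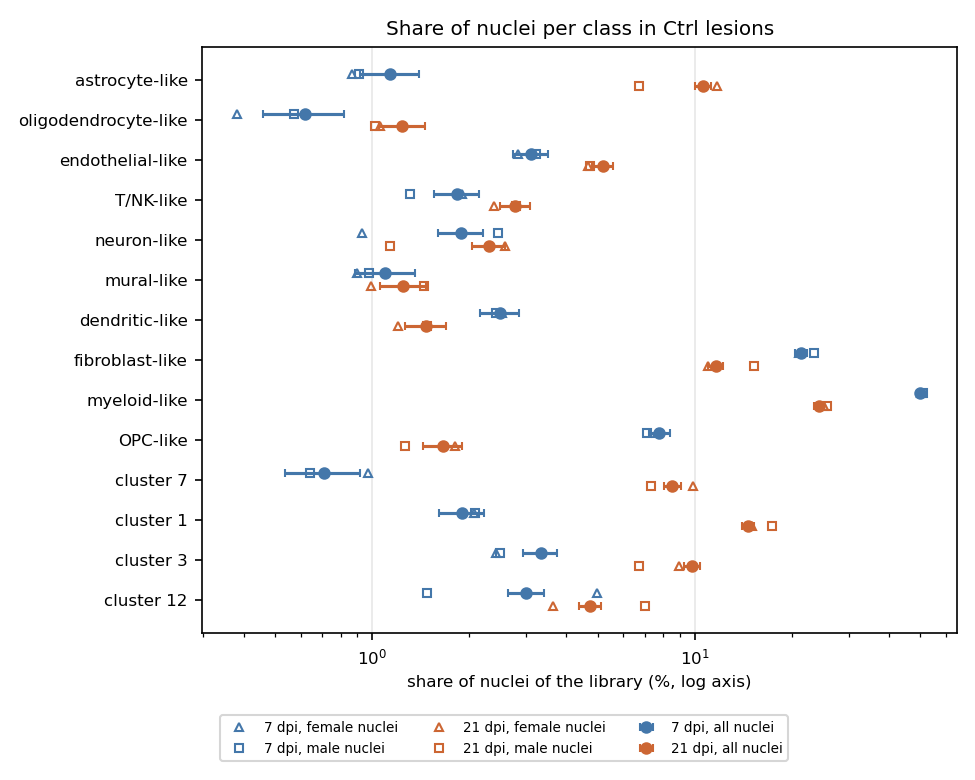
Share of nuclei per class and unnamed cluster (%, log axis) in the Ctrl libraries at 7 dpi (blue) and 21 dpi (orange). Filled points are all nuclei with exact 95% binomial intervals (counting error only), open triangles are female and open squares male nuclei; myeloid-like, OPC-like and fibroblast-like shares lie lower at 21 dpi in both sexes, astrocyte-like and cluster 1 and 7 shares lie higher, and the 2 sexes part ways only for neuron-like nuclei and cluster 12.

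Within each class, UMIs were summed per library and genes compared as log2 ratios of CPM, 21 over 7 dpi. A gene was tested with a mean of at least 20 CPM and at least 30 UMIs over both libraries, and it was called when it differed at least 2-fold with an interval that left out 0. Rose, fell, higher and lower below refer to called genes unless an interval is given. Calls rest on counting error only and say nothing of the spread between mice beyond the values given for each sex.

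In fibroblast-like nuclei 2 of 3 tested myofibroblast markers and 5 of 17 tested basement membrane genes were lower at 21 dpi, 5 of 9 tested small leucine-rich proteoglycans were higher, and fibrillar collagen genes with 1 exception were not called. Of 7100 genes tested, 245 were called higher (3.45%) and 321 lower (4.52%), and 430 of these 566 were at least 2-fold in the same direction in both female and male nuclei (76.0%). The median log2 ratio over all genes tested was -0.01. Different clusters held the class at the 2 times: clusters 4 and 13 held 62.0% and 36.9% of it at 7 dpi, and cluster 8 held 71.9% at 21 dpi against 1.18% at 7 dpi.

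Of the 5 myofibroblast markers 3 were tested, and 2 were called lower. Postn (periostin, a matrix protein of healing tissue, chromosome 3, 54361109 to 54391037, GRCm38/mm10) stood at 333 CPM at 7 dpi (324 to 342) and 111 CPM at 21 dpi (105 to 118), a log2 ratio of -1.58 (-1.67 to -1.49). Cthrc1, a secreted protein of collagen-producing myofibroblasts, stood at 76.3 and 23.8 CPM (-1.68, -1.87 to -1.49). Fn1, which encodes fibronectin, stood at 1280 and 837 CPM and was not called (-0.61, -0.64 to -0.57). The smooth muscle actin gene Acta2 was too low to be tested, at 15.4 and 2.54 CPM (251 and 29 UMIs), and so was Lrrc15 (4.48 and 1.31 CPM). Summed over the 5 markers the level was 1710 CPM at 7 dpi and 976 CPM at 21 dpi. Postn was at least 2-fold lower in female nuclei (-1.33) and male nuclei (-2.02) alike.

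Part of this class-level difference was absent within a cluster. In cluster 4 Postn stood at 270 CPM at 7 dpi and 264 CPM at 21 dpi (-0.03, -0.17 to 0.10), and in cluster 13 at 433 and 179 CPM (-1.27, -1.53 to -1.02). Of the 31 list members and named genes called lower in the class, 17 were at least 2-fold lower within cluster 4 and 8 within cluster 13, and of the 30 called higher 18 and 12 were at least 2-fold higher. Cluster 8 had only 20 nuclei at 7 dpi and was not compared. The clusters were formed with these genes, so their values describe where a difference lay and do not test it.

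Of 10 fibrillar collagen genes 9 were tested, 1 was called higher and none lower, with a median log2 ratio of 0.09. Col1a1 stood at 1410 and 1310 CPM, Col3a1 at 2160 and 2300 CPM and Col1a2 at 2800 and 4100 CPM, which are levels of single genes and not comparable between genes since 3′ counting and gene structure set them. The called gene was Col11a2, a cartilage-type collagen chain (42 and 112 CPM, 1.42, 1.28 to 1.55). None of the 9 tested collagen crosslinking and hydroxylation genes was called, with a median of 0.17. With clusters 1, 7 and 12 added to the class, the fibrillar collagen median was -0.36, with 1 gene lower and none higher, and Col11a2 was not called (0.98).

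Of 21 basement membrane genes 17 were tested, 5 were called lower and 1 higher, and the median was -0.64. The laminin chain gene Lamb1 (chromosome 12, 31265234 to 31329644) stood at 227 CPM at 7 dpi (219 to 234) and 43.4 CPM at 21 dpi (39.6 to 47.4), a log2 ratio of -2.39 (-2.52 to -2.25). The nidogen gene Nid2, which links laminin to collagen IV, stood at 114 and 31.5 CPM (-1.85), and Col18a1, whose C-terminal fragment is endostatin, at 263 and 73.5 CPM (-1.84). Lamc3 (70.1 and 23.9 CPM) and Col4a6 (233 and 101 CPM) also fell, and Col15a1 rose from 27.8 to 59.1 CPM. With clusters 1, 7 and 12 added 9 of 17 were lower and none higher, and Col15a1 stood at 22.9 and 21.9 CPM (-0.06, -0.23 to 0.10). Col4a1 and Col4a2, head-to-head genes for the main collagen IV chains, stood at 789 and 448 CPM and at 625 and 349 CPM, with log2 ratios of -0.82 and -0.84. Within clusters 4 and 13 Lamb1 was lower by less than in the class (-0.90 and -0.64).

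Small leucine-rich proteoglycans, which bind collagen fibrils and set their diameter, were counted over 12 genes, of which 9 were tested, 5 were called higher and none lower, and the median was 1.20. Fmod (fibromodulin, chromosome 1, 134037254 to 134048277) stood at 16.3 CPM (14.4 to 18.4) and 60.9 CPM (56.4 to 65.6), a log2 ratio of 1.90 (1.69 to 2.11). Ogn (osteoglycin, 23.5 and 76.4 CPM), Lum (lumican, 34.5 and 91.9 CPM), Epyc (25.9 and 71.1 CPM) and Ecm2 (16.4 and 37.6 CPM) rose by log2 ratios of 1.70, 1.41, 1.46 and 1.20. Dcn, the most studied member, encodes decorin and stood at 466 and 577 CPM (0.31, 0.26 to 0.36). Lum was higher within cluster 4 (1.91) and within cluster 13 (1.28), whereas Fmod was higher only within cluster 4 (2.25) and stood at 33.1 and 25.2 CPM in cluster 13 (-0.39, -1.15 to 0.29). Lum was also called higher in 7 of the 7 classes in which it was tested, so its rise was not limited to fibroblast-like nuclei.

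Of 12 TGFβ target genes 11 were tested, 2 rose, 2 fell, and the median was -0.21. The metalloproteinase gene Adam12 fell from 2310 to 978 CPM (-1.24) and the tenascin gene Tnc from 212 to 102 CPM (-1.05), whereas Ccn2, which encodes connective tissue growth factor, rose from 29.6 to 81.2 CPM (1.45) and Ltbp2 from 111 to 233 CPM (1.07). With clusters 1, 7 and 12 added to the class none of these 4 calls remained, with log2 ratios of -0.56 for Adam12, -0.77 for Tnc, 0.91 for Ccn2 and 0.03 for Ltbp2. Tnc went opposite ways within the clusters, from 161 to 32.2 CPM in cluster 4 and from 292 to 667 CPM in cluster 13. Of 22 ligands, receptors, integrins and Smads 19 were tested and only Ltbp2 was called. With those clusters added the single call was instead a fall of Ltbp1, which like Ltbp2 encodes a latent TGFβ binding protein (250 and 94 CPM, -1.41), and which stood at 263 and 145 CPM in the class as named (-0.86). Tgfbr2 stood at 327 and 237 CPM (-0.47, -0.53 to -0.40) and Tgfbr1 at 267 and 336 CPM (0.33, 0.27 to 0.40).

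The 3 late lesion-core genes included Fgf13, an intracellular fibroblast growth factor homologue (59.3 and 262 CPM, 2.14), and the semaphorin gene Sema3c (77.4 and 244 CPM, 1.66). Both rose, while Cdh18 stood at 339 and 417 CPM (0.30, 0.24 to 0.36). With clusters 1, 7 and 12 added only Fgf13 was called (1.56), Sema3c stood at 0.84, and Cdh18 turned to -0.72 (-0.77 to -0.67). Sema3c was called higher in 5 of the 6 classes in which it was tested and was highest in endothelial-like nuclei. Fgf13 was called higher in 4 of 9 classes, with log2 ratios from -0.69 to 2.14, the latter in fibroblast-like nuclei. That class had its lowest level at 7 dpi, where the classes ranged from 59.3 to 642 CPM. At 21 dpi they ranged from 185 to 865 CPM, and the highest level was in cluster 12 (480 and 1450 CPM). The rise of Fgf13 was thus not limited to fibroblast-like nuclei. Among retinoic acid genes 6 of 12 were tested. The synthesis enzyme gene Aldh1a1 rose from 50.5 to 108 CPM, Aldh1a2 fell from 131 to 64.0 CPM, and the receptor gene Rarb fell from 359 to 137 CPM (-1.39). The fall of Rarb was not called with clusters 1, 7 and 12 added (333 and 267 CPM, -0.32). Of 12 genes that attract or sustain lymphocytes 6 were tested, with a median of 0.52. Only the adhesion gene Vcam1 was called (29.6 and 70.6 CPM, 1.26), and the chemokine gene Cxcl12 stood at 105 and 126 CPM (0.26, 0.16 to 0.36). Vcam1 was not called with clusters 1, 7 and 12 added (0.45, 0.31 to 0.59), where the single call was the costimulatory gene Cd80 (1.18, 1.09 to 1.28). Ccl19 and Il7 were too low to be tested, at 1.35 and 4.03 CPM and at 2.09 and 4.38 CPM.

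**Figure D2:**
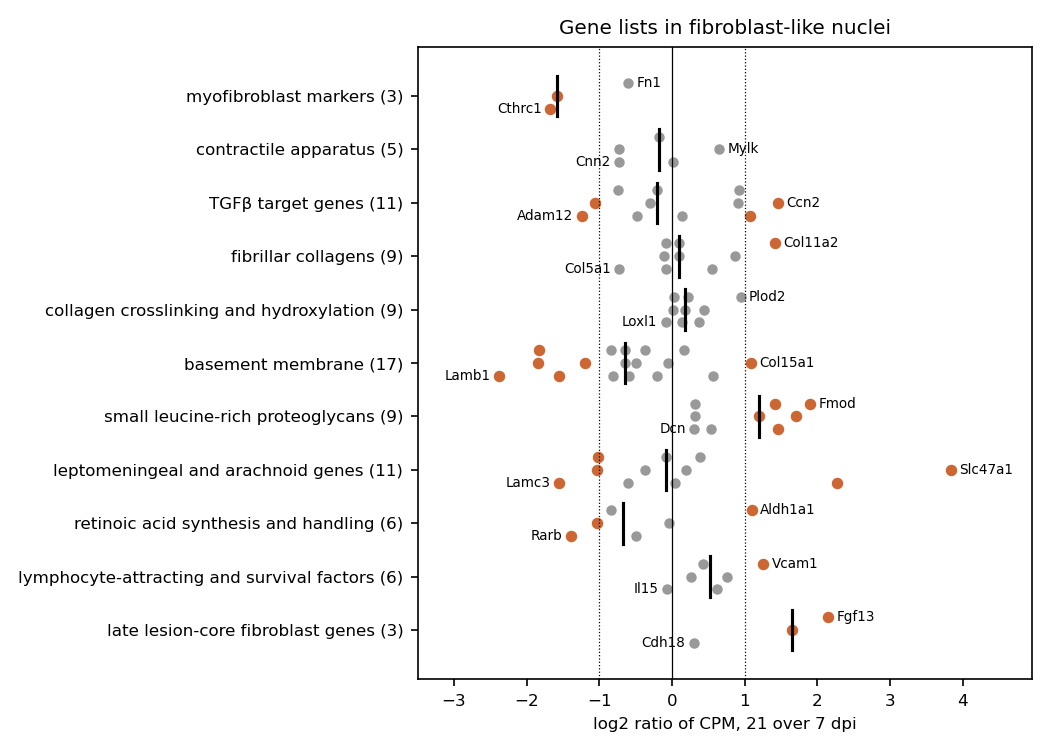
Each point is a tested member of a gene list in fibroblast-like nuclei, placed by its log2 ratio of CPM, 21 over 7 dpi, with the number tested in brackets. Orange points were called (at least 2-fold, interval without 0), grey points were not, black bars are list medians, dotted lines mark 2-fold, and the lowest and highest member are named; proteoglycans lie to the right of 0 (median 1.20) and basement membrane genes mostly to the left (median -0.64), while fibrillar collagens centre near 0 (median 0.09).

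The largest rises in fibroblast-like nuclei by the naming rule were those of the transporter genes Slc47a2 (4.11 and 67.6 CPM) and Slc47a1 (22.1 and 316 CPM), with log2 ratios of 4.04 and 3.84. Both are leading genes of cluster 1, where Slc47a2 stood at 254 CPM and Slc47a1 at 1170 CPM at 21 dpi. The ratio of Slc47a1 to Slc47a2 UMIs at 21 dpi was 4.68 in fibroblast-like nuclei and 4.59 in cluster 1. Over all classes and unnamed clusters it ranged from 3.86 in oligodendrocyte-like to 9.5 in dendritic-like nuclei, the latter on 19 and 2 UMIs. The ratio was alike in many classes, so it cannot tell where these UMIs came from. Slc47a1 was called higher in all 6 classes in which it was tested. The part of free RNA in these rises was not tested.

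Other large rises were those of the metalloproteinase genes Adamts17 (65.7 and 575 CPM, 3.13) and Adamts3 (22.3 and 204 CPM, 3.19), the latter a procollagen-processing enzyme, and of the matrilin gene Matn4 (28.8 and 226 CPM, 2.97). Among genes with a mean of at least 200 CPM, Ghr, which encodes the growth hormone receptor, rose from 991 to 4480 CPM (2.18, 2.15 to 2.20) and the imprinted noncoding RNA Meg3 from 636 to 2900 CPM (2.19). The angiogenesis inhibitor gene Ism1 (86.0 and 526 CPM) and the calsyntenin gene Clstn2 (76.0 and 461 CPM) completed that group. Meg3 was not called with clusters 1, 7 and 12 added (623 and 1170 CPM, 0.91), where Ghr stood at 1.31, Adamts17 at 1.83, Adamts3 at 1.90 and Matn4 at 1.46. Ghr and Adamts17 were not higher within the clusters that both libraries shared: Ghr stood at 1030 and 962 CPM in cluster 4 and at 862 and 886 CPM in cluster 13, and Adamts17 at 45.6 and 27.1 CPM and at 83.4 and 54.4 CPM. Ghr and Adamts17 are among the leading genes of cluster 8.

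The largest falls included Neurl2 (41.8 and 2.89 CPM, -3.86), Lrrc17 (84.1 and 8.59 CPM, -3.29), Tmem132c (221 and 30.1 CPM, -2.88) and the glypican gene Gpc3 (98.1 and 13.8 CPM, -2.83). Among genes with a mean of at least 200 CPM the largest were Samd5 (536 and 111 CPM), the adhesion gene Sdk1 (2010 and 422 CPM, -2.25), Ranbp3l, a marker of the class (615 and 149 CPM, -2.05), the pyrimidine-degrading enzyme gene Dpyd (495 and 135 CPM) and Arhgap6 (780 and 225 CPM). Each of these falls was at least 2-fold in female and in male nuclei, as the rule requires. Several depended on the class boundary: with clusters 1, 7 and 12 added, Sdk1 (-0.81), Ranbp3l (-0.99) and Arhgap6 (-0.95) were no longer called, whereas Samd5 (-2.80), Dpyd (-1.61) and Tmem132c (-3.50) were. Sdk1 was lower within cluster 4 (2710 and 1340 CPM, -1.01) and little changed within cluster 13 (1000 and 891 CPM, -0.17, -0.28 to -0.05).

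Myeloid-like nuclei changed the least of the 9 classes compared in the number of calls. Of 6771 genes tested 156 were called higher (2.30%) and 64 lower (0.945%), with 158 of the 220 at least 2-fold in both sexes (71.8%) and a median over all genes of 0.03. All 3 tested MHC class II genes and 3 of 15 lipid genes rose, and 12 of 20 cell cycle genes fell. Under TMM scaling, which centres the bulk of the genes, calls were 60.0% higher in place of 70.9%. It took the rises of H2-Ab1 and Itgax given below, which were just past 2-fold, under 2-fold.

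Of 11 MHC class II genes, used to present antigen to CD4 T cells, only 3 were tested and all 3 rose. Cd74, the invariant chain, stood at 37.9 CPM at 7 dpi (35.5 to 40.4) and 92.0 CPM at 21 dpi (87.0 to 97.1), a log2 ratio of 1.28 (1.16 to 1.40). H2-Aa stood at 14.4 and 38.7 CPM and H2-Ab1 at 15.4 and 31.1 CPM. All remained far below the level in dendritic-like nuclei, where Cd74 stood at 1970 and 1950 CPM. Cd74 was higher within cluster 0, the cluster led by the macrophage genes Mrc1 and F13a1 (31.2 and 162 CPM, 2.38), and lower within the dividing cluster 14 (86.4 and 58.2 CPM, -0.57, -1.08 to -0.09). With each nucleus thinned to 1000 UMIs, 3.58% of myeloid-like nuclei at 7 dpi and 9.10% at 21 dpi held a Cd74 UMI, beside 3.36% and 4.33% of neuron-like nuclei. H2-Aa was found in 1.68% and 4.55% beside 0.671% and 1.81% of neuron-like nuclei. H2-Ab1 was found in 1.73% and 3.29% beside 0% and 1.81%, so the shares in neuron-like nuclei rose too. Cd74 was called higher in 5 of the 8 classes in which it was tested, so its rise was not limited to myeloid-like nuclei.

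Of 18 genes of lipid uptake, storage and efflux 15 were tested, 3 rose and none fell, with a median of 0.19. Lpl, which encodes lipoprotein lipase, stood at 236 CPM (230 to 242) and 569 CPM (557 to 582), a log2 ratio of 1.27 (1.22 to 1.32). The lipid-sensing transcription factor gene Pparg rose from 106 to 259 CPM (1.29) and the fatty acid binding protein gene Fabp4 from 8.40 to 57.9 CPM (2.79). The efflux pump gene Abca1 (2820 and 3160 CPM) and the scavenger receptor gene Cd36 (241 and 272 CPM) were not called. The thinned share of myeloid-like nuclei with an Lpl UMI was 14.7% at 7 dpi and 27.4% at 21 dpi, against 2.01% and 5.05% of neuron-like nuclei. Lpl was called higher in 5 of 9 classes and was highest in myeloid-like nuclei. Among the myeloid clusters it was higher in 4 of 5, by 2.22 in cluster 0, but not in cluster 6, led by Olr1 and Mmp12 (551 and 514 CPM, -0.10, -0.19 to -0.01).

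The 6 scar-associated macrophage genes were all tested and had a median of 0.20, and only Spp1 was called. Spp1 encodes osteopontin, a secreted matrix and cytokine protein, and fell from 1400 to 682 CPM (-1.04, -1.07 to -1.01). It was lower within all 5 clusters, from -0.34 in cluster 14 to -1.75 in cluster 9. Gpnmb, another marker of this state, stood at 1870 and 2390 CPM (0.36, 0.34 to 0.38), and Trem2 at 175 and 188 CPM (0.11, 0.04 to 0.18). Of 14 disease-associated microglia genes 11 were tested, of which Lpl and Itgax (41.3 and 82.8 CPM) rose and the growth factor gene Csf1 fell from 218 to 80.3 CPM (-1.44). No homeostatic microglia gene was called of 11 tested, although their median was -0.35. P2ry12, the purinergic receptor that marks resting microglia, stood at 235 and 180 CPM (-0.39, -0.45 to -0.32), and Sall1, the identity factor, at 59.9 and 36.5 CPM (-0.72, -0.86 to -0.57). Cluster 2, led by the microglial genes Siglech and Sall1, held 29.3% of myeloid-like nuclei at 7 dpi and 13.2% at 21 dpi, and cluster 6 held 11.8% and 25.7%.

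In heme and iron handling the heme-degrading enzyme gene Hmox1 fell from 114 to 45.0 CPM (-1.34) and the transferrin receptor gene Tfrc rose from 46.8 to 106 CPM (1.18). The iron exporter gene Slc40a1 stood at 86.6 and 154 CPM (0.83) and the ferritin gene Ftl1 at 576 and 414 CPM (-0.48), neither called. Hmox1 was lower within each of the 5 clusters, from -1.06 to -2.28. Of 12 complement genes 10 were tested and C4b (15.2 and 33.0 CPM) and Itgax were called higher. C4b was at background, found in 1.80% and 3.87% of thinned myeloid-like nuclei beside 2.01% and 5.42% of neuron-like nuclei. C1qa stood at 151 and 273 CPM (0.85), whereas C1qb stood at 311 and 313 CPM (0.01, -0.04 to 0.06). Interferon-stimulated genes showed no call among 10 tested, with a median of 0.03, and hypoxia and glycolysis genes none among 17.

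Of 30 cell cycle genes 20 were tested, 12 fell and none rose, with a median of -1.11 and a summed level of 1390 CPM at 7 dpi and 702 CPM at 21 dpi. Mki67, expressed in dividing cells, stood at 111 and 29.4 CPM (-1.91, -2.06 to -1.76) and the topoisomerase gene Top2a at 110 and 44.0 CPM (-1.32). The dividing cluster 14 held 9.25% of myeloid-like nuclei at 7 dpi and 3.15% at 21 dpi. Mki67 was also lower within the clusters, from -0.50 in cluster 14 to -3.83 in cluster 6.

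**Figure D3:**
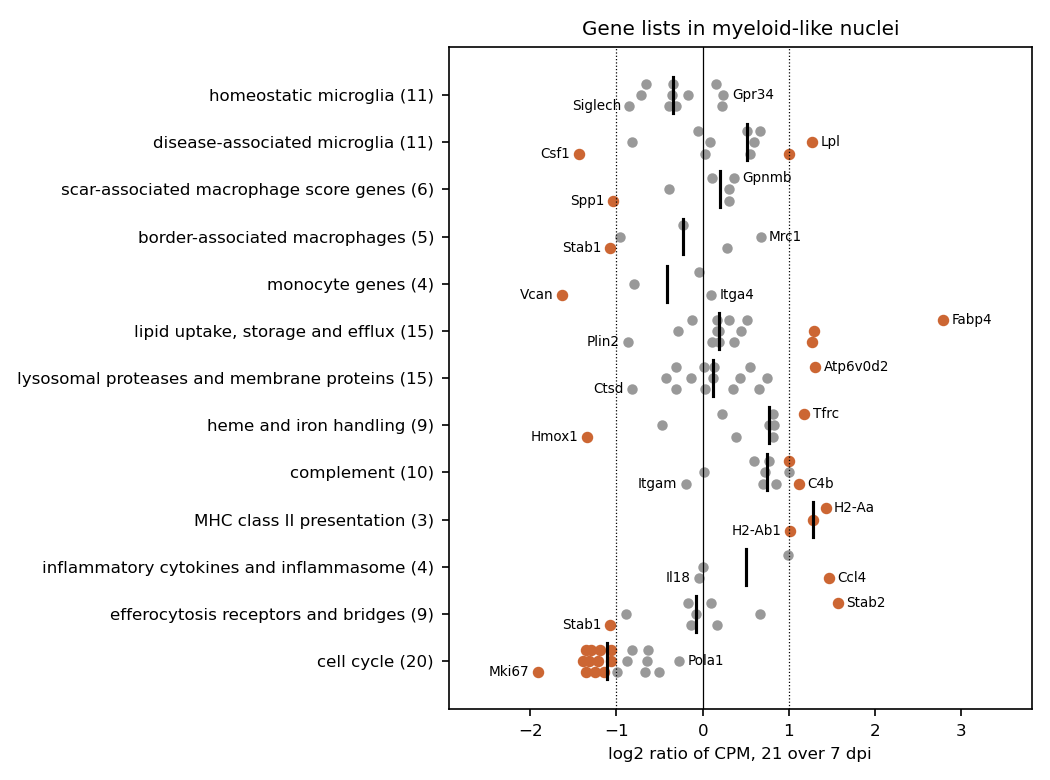
Tested members of gene lists in myeloid-like nuclei by log2 ratio of CPM, 21 over 7 dpi; colours, bars and dotted lines mark called genes (orange), uncalled genes (grey), list medians (black) and 2-fold. MHC class II genes (median 1.28) lie right of 0, cell cycle genes (median -1.11) left of it, and most other lists lie between the 2-fold lines.

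Beyond the lists, the largest rises in myeloid-like nuclei included the cation channel gene Trpc4 (6.17 and 52.8 CPM, 3.10), the NK-receptor ligand gene Clec2d (39.1 and 191 CPM, 2.29), the teneurin gene Tenm4 (41.8 and 190 CPM, 2.18) and Mgll, an enzyme of lipid mobilisation (61.8 and 227 CPM, 1.88). Clec2d was called higher in 7 classes, so it was not limited to myeloid-like nuclei. Mgp, also in this group (18.8 and 144 CPM), reached 16.3% of thinned myeloid-like nuclei at 21 dpi beside 12.3% of neuron-like nuclei. Mgll was found in 4.25% and 12.2% of thinned myeloid-like nuclei beside 1.52% and 7.34% of dendritic-like nuclei, the class with its lowest level. Only 4 genes with a mean of at least 200 CPM met the rule: Mamdc2 (128 and 445 CPM, 1.79), the lysosomal proton pump gene Atp6v0d2 (445 and 1100 CPM, 1.31), Lpl and the elastase gene Mmp12 (130 and 295 CPM, 1.19). Mmp12 went opposite ways in the clusters, from 123 to 883 CPM in cluster 9 and from 676 to 355 CPM in cluster 6.

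The largest falls were those of the metalloproteinase gene Adamts16 (71.6 and 7.89 CPM, -3.18), Csmd3 (628 and 131 CPM, -2.27), the linker histone gene Hist1h1e (39.2 and 9.79 CPM, -2) and the cyclic AMP-degrading enzyme gene Pde4d (1000 and 368 CPM, -1.45). Plxdc2 (3130 and 1430 CPM, -1.13) and the scavenger receptor gene Stab1 (1070 and 508 CPM, -1.07) were, with Taco1, the other high-level falls by the naming rule. Stab1 and Csmd3 were lower within all 5 clusters.

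Endothelial-like nuclei (245 and 626) had higher levels of 5 blood-brain barrier genes and lower levels of 4 angiogenic and 7 basement membrane genes at 21 dpi. Nid2 is in both of the latter lists and is counted in both. Of 7030 genes 452 were called higher (6.43%) and 130 lower (1.85%), with a median over all genes of 0.03. 373 of the 582 calls were at least 2-fold in both sexes. The median depth of these nuclei was 6973 UMIs at 7 dpi and 4143.5 at 21 dpi, and fibroblast markers within them summed to 1710 and 3400 CPM, with 10 of 12 higher at 21 dpi. The class's own markers summed to 12600 and 10400 CPM, with 2 of 11 higher at 21 dpi. Kdr and Flt1 of the angiogenic list and Cldn5 of the barrier list are among these markers. The part of fibroblast RNA in the endothelial rises and falls below was not tested.

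Of 16 blood-brain barrier genes 15 were tested, 5 rose and none fell, with a median of 0.60. The glucose transporter gene Slc2a1 (chromosome 4, 119108711 to 119137983) stood at 128 CPM at 7 dpi (113 to 145) and 381 CPM at 21 dpi (361 to 402), a log2 ratio of 1.57 (1.38 to 1.77). The organic anion transporter gene Slco1a4 rose from 389 to 1010 CPM (1.38), Pglyrp1 from 12.5 to 42.7 CPM (1.78), and Slc7a5 and Slc3a2, which together form an amino acid transporter, from 107 to 279 and from 60.9 to 139 CPM. The tight junction genes Cldn5 (242 and 379 CPM, 0.65, 0.50 to 0.80) and Ocln (116 and 144 CPM, 0.31, 0.08 to 0.54) and the efflux pump gene Abcb1a (479 and 726 CPM, 0.60) were not called. Slc2a1 rose alike in female (1.77) and male nuclei (1.75).

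Of 15 angiogenic and tip cell genes 11 were tested, 4 fell and none rose, with a median of -0.49. The netrin receptor gene Unc5b stood at 113 and 32.0 CPM (-1.82), the apelin receptor gene Aplnr at 121 and 41.0 CPM (-1.57), Nid2 at 103 and 43.6 CPM (-1.24) and Kdr, the main VEGF receptor gene, at 512 and 249 CPM (-1.04, -1.17 to -0.91). Angpt2 went the other way in level (47.4 and 61.8 CPM, 0.38, 0.03 to 0.75) and was opposite in sign in the sexes (1.96 and -0.34). Of 21 basement membrane genes 16 were tested, 7 fell and 1 rose, with a median of -0.95, and their summed level was 5380 CPM at 7 dpi and 3050 CPM at 21 dpi. Col18a1 (chromosome 10, 77052178 to 77166548) stood at 309 CPM (286 to 335) and 54.3 CPM (46.8 to 62.6), a log2 ratio of -2.51 (-2.75 to -2.27), and Col4a1 at 1180 and 525 CPM (-1.17). The exception was Lama2, a laminin chain also made by fibroblasts (106 and 296 CPM, 1.48).

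Of 8 leukocyte adhesion genes 6 were tested and 2 rose. Vcam1 stood at 92.3 and 259 CPM (1.49) and Ackr1, a chemokine-carrying receptor of venules, at 2.99 and 55.4 CPM (4.21, 3.06 to 5.67). In nuclei thinned to 1000 UMIs Ackr1 was found in 0.816% at 7 dpi (2 nuclei) and 3.04% at 21 dpi (19 nuclei), and in 0% of fibroblast-like nuclei at both times. The muscarinic receptor gene Chrm2 had 0 UMIs at 7 dpi and 87.2 CPM at 21 dpi, a log2 ratio of at least 5.86 against 3 counts, and the Wnt modulator gene Sfrp4 stood at 4.49 and 62.9 CPM (3.81). Among falls, the cell cycle repressor gene E2f7 (45.4 and 8.66 CPM, -2.39) and the intermediate filament gene Nes (47.4 and 11.5 CPM, -2.04) stood beside Col18a1. Of the 6 cell cycle genes tested 4 fell, with Mki67 at 52.9 and 4.04 CPM.

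Mural-like nuclei were few, 87 and 151, and nearly all their tested cell cycle genes were lower at 21 dpi. Of 7176 genes 501 were called higher (6.98%) and 368 lower (5.13%), with a median over all genes of -0.03, and 369 of 869 calls were at least 2-fold in both sexes. Of 18 cell cycle genes tested 17 fell and none rose, with a median of -3.19, and the list summed to 2040 CPM at 7 dpi and 315 CPM at 21 dpi. Mki67 stood at 140 and 12.5 CPM and Top2a at 138 and 8.75 CPM. Of 11 pericyte genes tested Atp13a5 (63.5 and 500 CPM, 2.98) and Vtn, which encodes vitronectin (40.3 and 250 CPM, 2.63), rose, and Abcc9, a potassium channel subunit gene, fell from 1510 to 711 CPM (-1.08). In thinned nuclei Atp13a5 was found in 8.05% at 7 dpi (3.3 to 15.9, 7 nuclei) and 12.6% at 21 dpi (7.75 to 19.0, 19 nuclei), with overlapping intervals. Atp13a5 is also a leading gene of the unnamed cluster 7, and the part of that cluster's RNA in its rise was not tested. Rgs5, the most used pericyte marker, stood at 1260 and 1360 CPM (0.11, -0.01 to 0.23). Myh11, the smooth muscle myosin gene, was the only called gene of 12 contractile genes tested (273 and 708 CPM, 1.37). Acta2 stood at 175 and 295 CPM (0.76), higher in female nuclei (1.56) and lower in male nuclei (-0.59). Basement membrane genes gave 4 falls and 2 rises of 18 tested, with Col18a1 at 646 and 207 CPM (-1.64). Id3, an inhibitor of differentiation factors, rose from 7.32 to 85.0 CPM (3.54), and Fn1 fell from 768 to 209 CPM (-1.88). In these nuclei fibroblast markers summed to 2840 and 4280 CPM and endothelial markers to 624 and 1100 CPM (9 of 11 higher), called doublets made up 8.05% and 17.9%, and the median depth was 7373 and 3731 UMIs. The part of these in the changes was not tested, and the rises of Ogn (6.10 and 43.7 CPM), Lum (12.2 and 86.2 CPM) and Slc6a20a (35.4 and 252 CPM) stand beside the fibroblast markers.

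In astrocyte-like nuclei 7 of 15 tested reactive genes and 6 of 12 tested homeostatic genes were higher at 21 dpi. Only 90 nuclei stood at 7 dpi against 1278 at 21 dpi, 41.1% of the former and 23.3% of the latter were called doublets, and other classes' markers moved with the comparison: myeloid markers summed to 1640 and 764 CPM, fibroblast markers to 3040 and 2290 CPM and the class's own markers to 2670 and 5380 CPM. Of 7627 genes 507 were called higher (6.65%) and 570 lower (7.47%), with a median over all genes of -0.13. Under TMM scaling 58.4% of calls were higher in place of 47.1%. Of the 1077 calls 396 were at least 2-fold in both sexes (36.8%), which rest on 25 female and 27 male nuclei at 7 dpi.

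Of 20 reactive genes 15 were tested, 7 rose and none fell, with a median of 0.84, which was 0.17 in female and 0.96 in male nuclei. Lcn2, which encodes the iron-binding protein lipocalin 2 (chromosome 2, 32384633 to 32388252), had 1 UMI (1.03 CPM) at 7 dpi and 2139 UMIs (230 CPM, 220 to 240) at 21 dpi, a log2 ratio of 7.80 (5.32 to 13.10). In thinned nuclei it was found in 0% at 7 dpi, which allows up to 4.02%, and in 14.3% at 21 dpi (12.4 to 16.4), beside 0% and 0.722% of neuron-like nuclei. The complement gene C3 stood at 15.5 and 222 CPM (3.84, 3.12 to 4.68), the metalloreductase gene Steap4 at 4.13 and 99.4 CPM (4.59) and Cp, which encodes ceruloplasmin, at 125 and 884 CPM (2.82). Gfap, the classical marker of reactive astrocytes, stood at 614 and 608 CPM (-0.01, -0.14 to 0.11) and Vim at 165 and 229 CPM (0.47, 0.24 to 0.71). The chitinase-like gene Chil1, outside the lists, had a pattern like that of Lcn2 (1.03 and 107 CPM, 6.70, 4.21 to 12).

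Of 16 homeostatic genes 12 were tested, 6 rose and none fell, with a median of 0.96, which was 0.47 in female and 0.51 in male nuclei. Slc1a2, Slc1a3, Aqp4, Gja1, Gjb6, Slc4a4 and Aldh1l1 of this list, and Gfap of the reactive list, are also markers by which the class was named. Their values are therefore not independent of the name. The glutamate transporter genes Slc1a2 (420 and 1310 CPM, 1.64) and Slc1a3 (615 and 1410 CPM, 1.20), the glutamine synthetase gene Glul (73.2 and 170 CPM, 1.22) and the connexin gene Gjb6 (5.16 and 41.9 CPM, 3.02) were among them. The water channel gene Aqp4 stood at 419 and 667 CPM (0.67, 0.53 to 0.82) and was opposite in sign in female (-0.10) and male nuclei (0.49). Of 22 TGFβ pathway genes 18 were tested and 4 fell: Tgfb1 (52.6 and 21.9 CPM), Tgfbr2 (264 and 112 CPM, -1.24) and the integrin genes Itgav (428 and 190 CPM) and Itgb5 (296 and 117 CPM). In thinned nuclei Tgfb1 was found in 0% and 1.80% and Tgfbr2 in 11.1% and 10.3%, without a clear fall. Itgav was found in 28.9% and 14.7% and Itgb5 in 17.8% and 10.2%. At 7 dpi 43.2% and 51.7% of thinned myeloid-like nuclei held a UMI of Itgav and Itgb5. The part of myeloid RNA in these falls was not tested. Vcan, a proteoglycan gene that OPCs also express, was the largest fall by the naming rule (666 and 130 CPM, -2.36). OPC markers summed to 4620 and 3940 CPM in this class. Of 8 cell cycle genes tested 5 fell, with a median of -2.48.

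In OPC-like nuclei, whose share fell, 2 committed precursor genes and 2 myelin genes were higher at 21 dpi. Of 7078 genes 198 were called higher (2.80%) and 356 lower (5.03%), with a median over all genes of -0.07, and 238 of 554 calls were at least 2-fold in both sexes. Of 10 committed precursor genes 9 were tested and 2 rose: Gpr17, a receptor of newly committed cells (22.9 CPM, 19.1 to 27.2, and 90.8 CPM, 78.3 to 105, log2 ratio 1.99), and the enzyme gene Enpp6 (179 and 408 CPM, 1.19). Of 15 myelin genes 9 were tested, 2 rose and none fell, with a median of 0.82. These were Mbp, a main myelin protein (387 and 789 CPM, 1.03), and Ugt8a, which makes myelin galactolipids (165 and 444 CPM, 1.43). Oligodendrocyte markers in the class summed to 1210 and 2740 CPM, 9 of 11 of them higher at 21 dpi, and 16% and 23.5% of its nuclei were called doublets.

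The lineage factors Olig1 (9.16 and 41.1 CPM, 2.16) and Olig2 (16.6 and 42.5 CPM, 1.36) rose. In thinned nuclei Olig1 was found in 1.14% (0.46 to 2.33) and 2.5% (0.817 to 5.74), with overlapping intervals. Olig2 was found in 1.95% (1.01 to 3.39) and 2.5% (0.817 to 5.74), whose intervals also overlap. Pdgfra, the growth factor receptor of precursors, stood at 197 and 240 CPM (0.28, 0.13 to 0.43) and Sox10 at 268 and 222 CPM. The largest falls were those of the cadherin gene Cdh8 (110 and 7.73 CPM, -3.83), Fstl4 (504 and 39.1 CPM, -3.69) and the glutamate receptor gene Grm3 (198 and 24.6 CPM, -3.01). Bcas1os2, antisense to Bcas1, had the largest rise by the naming rule (24.1 and 239 CPM, 3.31), and Bcas1 itself, a marker of early myelinating cells, stood at 1330 and 2300 CPM (0.79, 0.73 to 0.84). Reads of an antisense pair may not be fully separated. Of 18 cell cycle genes tested 1 was called lower (Cenpe, 55.3 and 25.6 CPM) and none higher, with a median of -0.33 (-0.18 in female and -0.77 in male nuclei), and the list summed to 1240 and 1120 CPM.

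**Figure D4:**
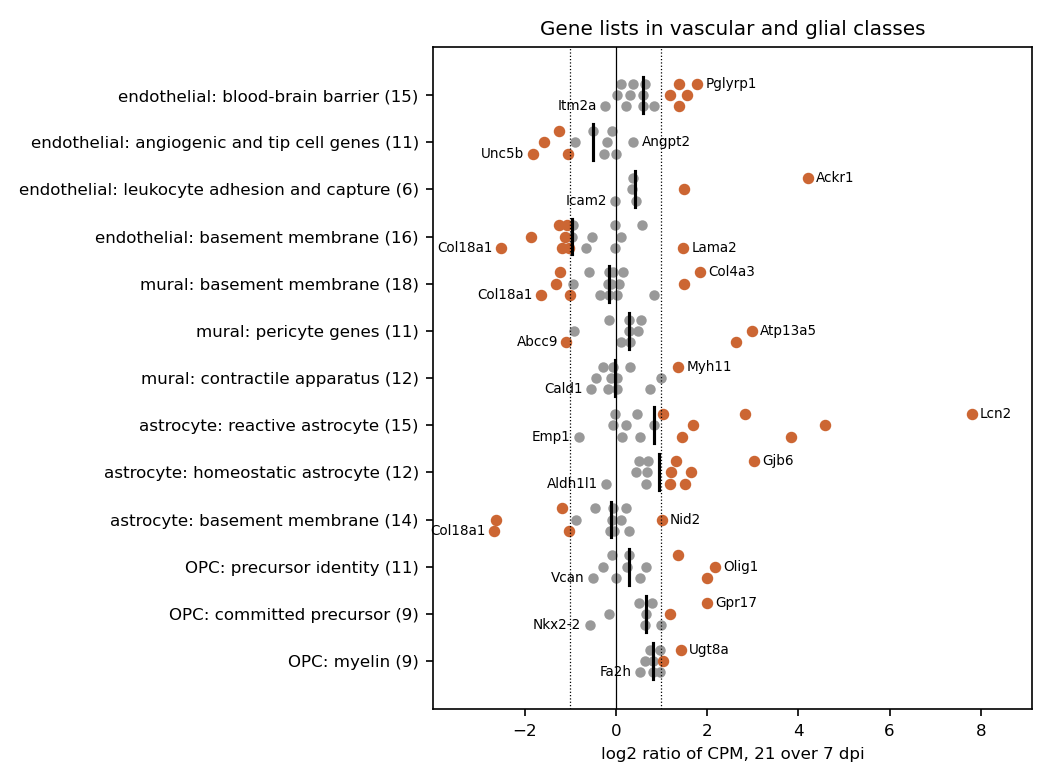
Tested members of gene lists in endothelial-like, mural-like, astrocyte-like and OPC-like nuclei by log2 ratio of CPM, 21 over 7 dpi, with called genes in orange, uncalled in grey, list medians as black bars and 2-fold as dotted lines. Barrier genes lie right of 0 (median 0.60) and endothelial basement membrane genes left of it (median -0.95), and Lcn2 at 7.80 is the most extreme member.

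T/NK-like nuclei (145 and 335) were shallow, with medians of 2990 and 2669 UMIs. Of 7899 genes 270 were called higher (3.42%) and 292 lower (3.70%), with a median over all genes of 0.03, but only 185 of 562 calls were at least 2-fold in both sexes (32.9%). Clusters 16 and 20 held the class in different shares, with cluster 20, led by Ccl5 and Nkg7, at 31.7% of it at 7 dpi and 14.9% at 21 dpi, and its part in the changes below was not tested. Fibroblast markers in the class summed to 1950 and 3640 CPM (8 of 12 higher) and myeloid markers to 2070 and 1590 CPM (2 of 12 higher). The class's own markers summed to 5120 and 5540 CPM, and the part of the others in the changes was not tested either. Of 17 cell cycle genes tested 12 fell and none rose, with a median of -1.27, among them Mki67 (107 and 28.0 CPM) and Top2a (186 and 40.0 CPM). Of 17 hypoxia and glycolysis genes tested 4 fell and none rose, with a median of -0.19. By sign alone 7 were higher and 10 lower. Among the falls were Gapdh at 419 and 130 CPM (-1.68, -1.98 to -1.39) and Ldha at 144 and 64.0 CPM. Of 10 cytotoxic genes tested the transcription factor gene Eomes fell from 65.3 to 12 CPM (-2.45, -3.41 to -1.55). Gzma was called lower (30.1 and 14.4 CPM, -1.07, -2.09 to -0.04) on 18 UMIs at each time, with 2.07% and 2.39% of nuclei holding one. The chemokine gene Ccl4 rose from 20.1 to 82.3 CPM (2.03, 1.17 to 3.03). In thinned nuclei Ccl4 was found in 2.07% (0.429 to 5.93) and 2.99% (1.44 to 5.42), with overlapping intervals. Eomes was found in 4.83% (1.96 to 9.69) and 1.19% (0.326 to 3.03), whose intervals also overlap. No egress, regulatory T cell or checkpoint gene was called (7, 5 and 4 tested). Of 10 residency genes tested only Rgs2, a G protein signalling regulator, was called, and fell from 45.2 to 17.6 CPM (-1.36, -2.24 to -0.50). Among the uncalled, Cxcr6 stood at 231 and 302 CPM (0.39, 0.10 to 0.68) and the integrin gene Itgae at 142 and 72.0 CPM (-0.98, -1.43 to -0.54). The largest rises by the naming rule, Igkc (1.67 and 145 CPM) and Atp6v0d2 (45.2 and 278 CPM), are a B-lineage and a macrophage gene. In thinned nuclei Atp6v0d2 was found in 1.38% and 7.46% of this class beside 2.01% and 7.94% of neuron-like nuclei, which is at background.

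Dendritic-like nuclei numbered 197 and 177, and of 7127 genes 402 were called higher (5.64%) and 208 lower (2.92%), with a median over all genes of 0.00. Under TMM scaling 54.5% of calls were higher in place of 65.9%. Neutrophil markers in the class summed to 269 and 787 CPM, with 9 of 9 higher at 21 dpi, beside 816 and 774 CPM for dendritic markers, and myeloid markers to 1520 and 2290 CPM (10 of 12 higher) and oligodendrocyte markers to 1170 and 602 CPM. The part of these in the changes below was not tested. The cluster had 6 dendritic and 5 neutrophil markers raised. Unlike in myeloid-like nuclei, MHC class II genes did not rise here: of 8 tested none rose and H2-Ob, which restrains peptide loading, fell (67.5 and 26.9 CPM, -1.33). Ciita, the class II master regulator, stood at 666 and 381 CPM (-0.81, -1.02 to -0.59). The difference in direction between the classes was not tested. Of 9 cell cycle genes tested 7 fell. The G protein gene Gna14 (382 and 49.0 CPM, -2.96) and the chemokine receptor gene Ccr6 (50.7 and 12.6 CPM, -2) were among the largest falls, and the lectin receptor gene Clec4d (10.9 and 64.8 CPM, 2.57) among the largest rises.

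Neuron-like nuclei (149 and 277) gave 196 genes higher (2.99%) and 462 lower (7.04%) of 6560, with a median over all genes of -0.18. The split turned with the scaling, since under TMM 55.1% of calls were higher in place of 29.8%, and 33 of the 277 nuclei at 21 dpi were in a cluster with none at 7 dpi. OPC markers in the class summed to 1720 and 762 CPM (1 of 9 higher) and oligodendrocyte markers to 289 and 111 CPM, and their part in the falls was not tested. The transcription factor gene Meis2 rose from 84.7 to 619 CPM (2.87) and Cux2, a marker of upper-layer excitatory neurons, fell from 366 to 84.6 CPM (-2.11). The stress factor gene Atf3 fell from 48.2 to 1.93 CPM (-4.64, -5.81 to -3.65). Immediate early genes as a list did not fall in this class. With 4 of 21 tested, 1 rose and 1 fell, the median was 0.12, and the list summed to 163 and 196 CPM. Which neuron types were captured and what each expressed cannot be told apart here.

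Some genes moved one way across classes. Ptgds, a prostaglandin synthase of the meninges, and Mgp, an inhibitor of calcification, were called higher in 9 of 9 classes, and Igkc in 8 of 8 in which it was tested. In all, 20 genes were higher in at least 7 classes and 6 lower. Ptgds ranged from 4.13 to 56.9 CPM over the classes at 7 dpi and from 67.4 to 264 CPM at 21 dpi, and its highest level was in cluster 7 (946 and 3330 CPM). Igha, highest in cluster 3 (1.76 and 846 CPM), stood at 1.47 to 29.8 CPM over the classes at 7 dpi and at 20.2 to 433 CPM at 21 dpi. Neuron-like nuclei, which do not make immunoglobulin, held an Igkc UMI in 0% of thinned nuclei at 7 dpi and 8.66% at 21 dpi. The part of free RNA in the rises shared by the classes was not tested.

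Taco1, a mitochondrial translation factor gene, was lower in all 9 classes, from 229 to 524 CPM at 7 dpi and from 38 to 133 CPM at 21 dpi (log2 ratios -3.22 to -1.12). Spp1, at its highest in T/NK-like (2150 and 385 CPM) and myeloid-like nuclei, and Stab1, at its highest in myeloid-like nuclei, were each called lower in 7 of 9. Mki67 and Top2a were called lower in 7 of 8 classes tested. Tsc22d3, Klf9 and Mt1, genes that glucocorticoids induce, were each called higher in 6 classes, and Mt1 was lower in 1 of the others without a call (-0.83). The list of 14 glucocorticoid-responsive genes did not move one way in every class: 5 of 8 tested rose and none fell in mural-like nuclei (median 1.49), 4 of 8 rose in endothelial-like nuclei (0.95), and 1 rose and 2 fell of 7 in T/NK-like nuclei (-0.67). The T/NK-like median was positive in male nuclei (1.00) and when clusters were formed on log-normalised counts (0.28), so its direction was not stable. A single member fell in each of the astrocyte-like and dendritic-like classes, where 4 and 3 rose of 8 tested, and fibroblast-like nuclei gave 1 rise of 5 (median 0.61), or 4 of 6 with clusters 1, 7 and 12 added (1.31). Tsc22d3, which encodes the mediator GILZ, reached 196 CPM in fibroblast-like nuclei (46.0 CPM at 7 dpi, 2.09), and Klf9 reached 250 CPM in mural-like nuclei (76.9 CPM at 7 dpi, 1.70). Mt1, a metallothionein gene, rose from 25.8 to 426 CPM in astrocyte-like nuclei (4.05, 3.48 to 4.67). Both time points were 1 library each, so the handling of the tissue and the time after injury cannot be told apart in changes shared by the classes.

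**Figure D5:**
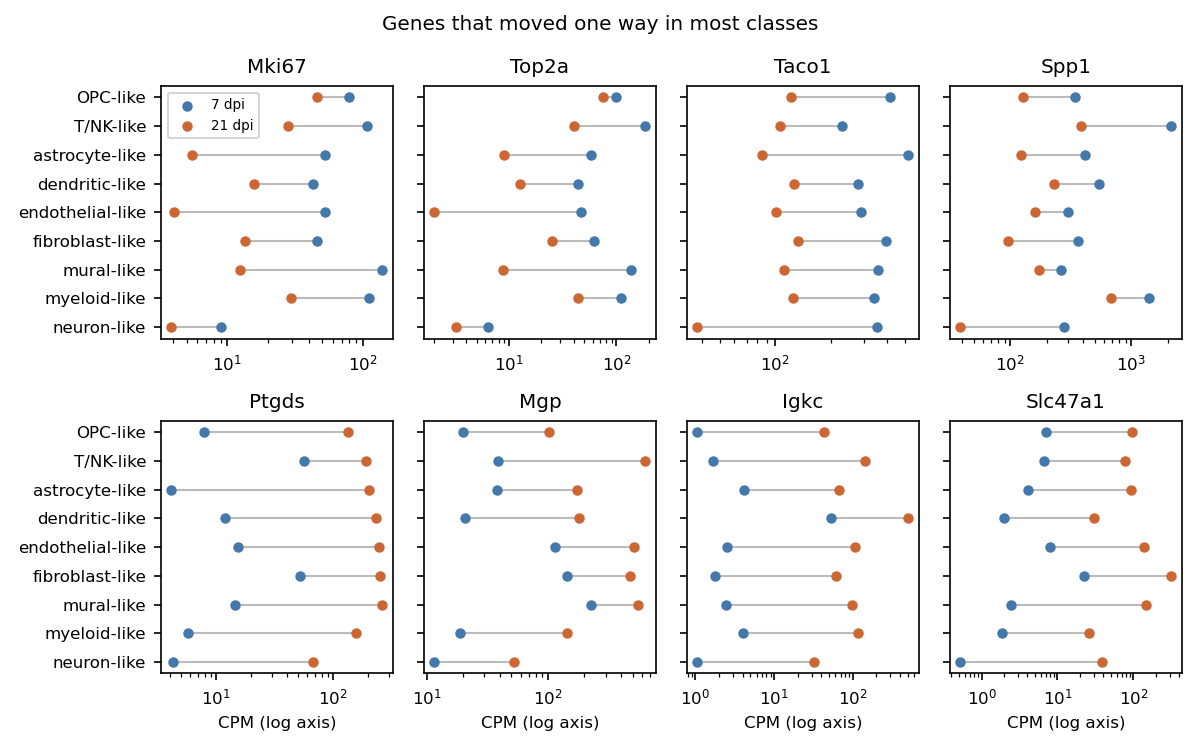
Level (CPM, log axis) of 8 genes in each class at 7 dpi (blue) and 21 dpi (orange), joined by grey lines. Mki67, Top2a, Taco1 and Spp1 lie lower at 21 dpi in the 9 classes, and Ptgds, Mgp, Igkc and Slc47a1 lie higher in the 9 classes.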

How the data were processed

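The deposited counts are UMIs per gene and barcode that the authors made with Cell Ranger 7.2.0 per the file headers (7.1.0 in the submitters' processing notes) on mm10, not normalised. Of 32285 features 32158 matched GENCODE M21, the source of coordinates. Both Ctrl libraries entered 1 clustering in R 4.3.3, with Seurat 5.3.0 after normalisation by sctransform 0.4.2. It took 30 principal components of the 3000 most variable genes, leaving out Xist, Tsix, 4 Y-linked genes and the mitochondrial ones, and a resolution of 0.5. A class name needed 3 raised markers (at least 5% of nuclei and 2-fold), more than any other class, and no lead by another class's genes. An astrocyte name also needed Gfap, Aqp4, Slc1a2 or Slc1a3, a rule set after seeing the clusters. Some members of the gene lists, such as the homeostatic astrocyte, pericyte and precursor identity lists, are also class markers. Doublets were the nuclei with the highest scores against simulated ones (2 per nucleus). Their number was set beforehand from the barcodes of each library, at 569 for 7 dpi and 1375 for 21 dpi. The percentages called at the 2 times therefore differ in part by this setting. No cluster had over 50% called, so none were removed. Female nuclei had Xist and no Y-linked UMI, male nuclei the reverse.

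UMIs were summed per class with at least 50 nuclei in both libraries. Shares carry Clopper-Pearson intervals, CPM exact Poisson intervals and ratios exact conditional binomial intervals. A gene at 0 was set to 3 counts. Named genes were the 5 largest rises and falls per class (10 in fibroblast-like and myeloid-like nuclei, plus 5 with a mean of at least 200 CPM). They had to be 2-fold in both sexes, to reach 0.2 of the level in the class or numbered cluster with the highest level, and to have under 10% of UMIs from 1 nucleus, without predicted genes. Up to 4 members per list with the largest ratios, and members the study names, were also named. Other named genes were chosen after their values were seen, as were the genes shown across classes and the values within clusters. The members and lists were chosen with earlier results of these data known. Alternatives were TMM scaling (edgeR 4.0.16), lower thresholds, means over nuclei, log-normalised clustering, percentile filters, doublets left out and single sexes. Ambient RNA was not removed. The calling was run on simulated counts with Poisson error only. These had no spread between nuclei or mice, so they say nothing of calls under such spread. Some genes that met the naming rule are not reported here.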

Additional observations from a re-analysis of the deposited data

How the results depend on the processing

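No paired analysis was possible because each time point had 1 library. Log2 ratios of shares (21 over 7 dpi) moved beyond their counting interval under these settings, and the cause was not tested. With log-normalised clustering they were 1.01 for T/NK-like, 2.18 for astrocyte-like and -0.57 for fibroblast-like nuclei, and with the percentile filter -1.01 for fibroblast-like and -1.24 for myeloid-like nuclei. Dendritic-like nuclei were not named under either of these, so they have no value there. With called doublets left out they were 3.67 for astrocyte-like and -0.96 for myeloid-like nuclei, and with neural classes out of the denominator -0.97 for myeloid-like nuclei. With clusters 1, 7 and 12 added, an alternative chosen after seeing the data, the fibroblast ratio reversed to 0.55. In nuclei of 1 sex the ratios ranged from -2.49 to -2.07 (OPC-like), 0.32 to 1.09 (T/NK-like), 2.89 to 3.76 (astrocyte-like), -1.07 to -0.71 (dendritic-like), -0.94 to -0.61 (fibroblast-like) and -1.11 to 1.47 (neuron-like).

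With a minimum of 5 CPM and 1 UMI, so that more genes were tested, called genes numbered 1472 (OPC-like), 1085 (T/NK-like), 2238 (astrocyte-like), 1198 (dendritic-like), 1619 (endothelial-like), 1381 (fibroblast-like), 1634 (mural-like), 717 (myeloid-like) and 1726 (neuron-like). The percentile filter gave 1317 in neuron-like nuclei. In nuclei of 1 sex, with fewer nuclei, called genes ranged from 494 to 1026 (OPC-like), 300 to 651 (T/NK-like), 339 to 518 (mural-like) and 961 to 1486 (neuron-like). Median list ratios reversed for glucocorticoid-responsive genes in T/NK-like nuclei (0.28 with log-normalised clustering, -0.60 to 1.00 in 1 sex) and for interferon-stimulated genes in neuron-like nuclei (0.037 with means over nuclei). TMM scaling subtracted from all log2 ratios a centre of -0.13 in astrocyte-like, 0.11 in endothelial-like, 0.10 in myeloid-like and -0.19 in neuron-like nuclei. In fibroblast-like nuclei the centre was 0.087, which took the rise of Ltbp2 under 2-fold. The naming rule required 2-fold changes in both sexes, so its 125 genes could not reverse in 1 sex or by the TMM shift, and under the other settings none reversed. Adding clusters 1, 7 and 12 moved 25 of 29 of them in fibroblast-like nuclei. Among the other genes named, mural Acta2, astrocyte Aqp4 and endothelial Angpt2 turned sign in 1 sex and fibroblast Cdh18 turned sign with those clusters added. Depth limits the classes with fewest nuclei, where 1 mouse of each sex and counting error are all that can be weighed.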
